A study of Enchytraeus crypticus with 60 samples.

Results

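The 100 probes described here were those that passed the array's detection flag far more often in worms exposed to silver than in worms kept without it. They were taken from 20571 candidates among the 43750 gene probes of a custom Agilent array for Enchytraeus crypticus, a soil-dwelling oligochaete worm used in ecotoxicology. A candidate was a probe whose signal was not positive and significant on all 60 arrays. For each candidate, S was the share of the 48 silver arrays on which the spot was well above background minus the same share of the 12 control arrays, and the members were chosen by the 100 highest S values. A spot that is well above background, called "on" below, exceeds the local background by a set multiple of its noise. The rule thus used the silver against control contrast, and everything said of that contrast below is a description with no test.

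Each array held labelled RNA from 20 whole adult worms, with 3 arrays in each of 20 groups. Worms were kept for 3 or 7 d in LUFA 2.2 soil spiked with AgNO3, with Ag NM300K, or with silver nanoparticles that were PVP-Coated (Ag-NPs PVP-Coated) or not (Ag-NPs Non-Coated). Each material was used at the EC20 and the EC50, the concentrations that reduce reproduction by 20% and 50%, so doses were matched on effect and not on mass of silver. CT was the un-spiked soil and served as control for AgNO3 and both Ag-NPs. CTdisp was soil with the dispersant of Ag NM300K, which contains Tween 20, and served as control for that material only. Whole bodies were extracted, so a change in the number of cells of a type and a change of RNA per cell cannot be told apart.

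Silver ions bind thiol groups of proteins, and silver particles release such ions as they dissolve. Animals exposed to metals commonly raise metal-binding proteins, chaperones and enzymes against oxidative damage. AgNO3 is a soluble salt that gives ions directly, PVP is a polymer coating that keeps particles apart, and NM300K is a reference material supplied as a dispersion. The files pair each probe with a contig or a single sequencing read of the worm's transcriptome and with no gene name, so no function is given for any member.

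The members were a mixed set of transcripts. Each of the 100 probes had its own transcript identifier, and 59 of these were assembled contigs while 41 were single reads. Contigs made up 59% of members, 58.3% of candidates and 53% of all gene probes. When the rows of the array were split into 4 equal blocks, these held 34, 32, 14 and 20 members. No spot of a member was saturated, and 99 members had no outlier spot on any array.

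S ran from 52.1 to 85.4 percentage points over the members, with a median of 56.2 points, against a median of 4.17 points over all candidates. Members were on in 26 to 47 of the 48 silver arrays, with a median of 37, and in 0 to 5 of the 12 control arrays, with a median of 2. The edge of the list was a tie. CUST_18157_PI427420766_b (contig12965), the last member, was on in 29 silver arrays and 1 control array, as were CUST_61539_PI427420766_b (GYUW2K402GIVRD) and CUST_18196_PI427420766_b (contig12928), the first to miss the list. In all, 33 candidates shared the lowest S of 52.1 points. Ties were settled by the higher mean log2 signal over the silver arrays, which kept 31 of them. The 102 candidates at or above this S made up 0.496% of the candidates.

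The label "switched on" overstated what the signals showed. The members were dim in both conditions rather than absent from controls. They were positive and significant on a median of 11 of the 12 control arrays, and 97 of them on at least 9. Their mean processed signal on the log2 scale was 2 to 3.76 over the control arrays and 3.2 to 4.86 over the silver arrays. After SVCD normalization, the mean difference of the silver treatments from their own controls was 0.33 to 2.01 on the log2 scale, with a median of 0.97, or a 1.96-fold difference. Over all gene probes the median difference was 0.0841. No member was on in all 3 replicates of all 16 treatments, and the number of treatments with all 3 replicates on ran from 2 to 15, with a median of 8.

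Counted by array, 6 to 100 members were on in the silver arrays, with a median of 86.5, and 2 to 77 in the control arrays, with a median of 12.5. In CT, 4, 6 and 22 members were on at 3 d, and 3, 8 and 2 at 7 d. In CTdisp the counts were 12, 13 and 18 at 3 d, and 32, 35 and 77 at 7 d. The array with 77, CTdisp 7 d replicate 3, lay within the range of the silver arrays, and 11 members were on in that control array and in no other. In AgNO3 a mean of 61.4 ± 29.9 members was on (SD, n = 12), against 83.1 ± 15.6 in Ag-NPs PVP-Coated, 80.5 ± 19.4 in Ag-NPs Non-Coated and 80.8 ± 15.3 in Ag NM300K. The lowest silver count, 6 members, came from AgNO3 EC50 3 d replicate 1. Members on in all 3 arrays of a treatment numbered 2 in AgNO3 EC50 3 d, 17 in AgNO3 EC20 3 d, 37 and 61 in Ag-NPs PVP-Coated EC20 and EC50 3 d, 58 and 31 in Ag-NPs Non-Coated EC20 and EC50 3 d, and 57 and 29 in Ag NM300K EC20 and EC50 3 d. At 7 d they numbered 22 in AgNO3 EC20, 84 in AgNO3 EC50, 75 and 76 in the 2 doses of Ag-NPs PVP-Coated, 43 in Ag-NPs Non-Coated EC20, 92 in Ag-NPs Non-Coated EC50, and 71 and 78 in the 2 doses of Ag NM300K. In CT it was 0 at both times, and in CTdisp 1 at 3 d and 13 at 7 d, which is the group that holds the array with 77 members on.

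**Figure D1:**
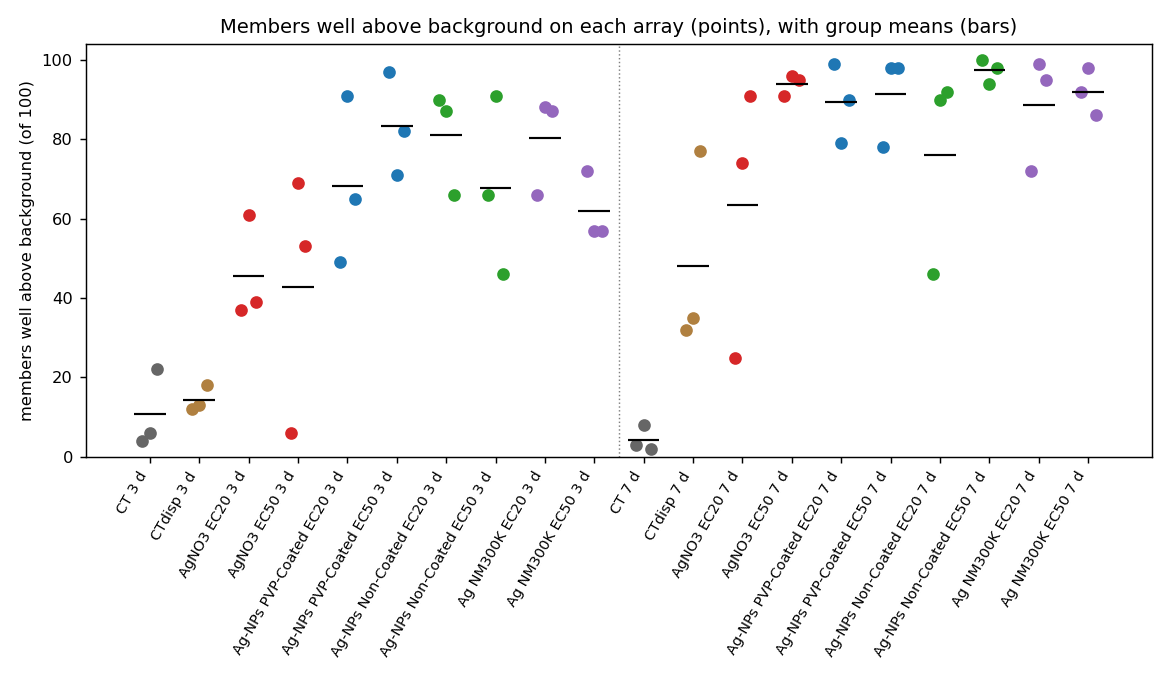
Number of the 100 members well above background on each of the 60 arrays (points), with the mean of each group of 3 (bars), 3 d groups to the left of the dotted line and 7 d groups to the right. CT arrays stay between 2 and 22, CTdisp 7 d reaches 77, and silver arrays run from 6 to 100.

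The flag sets a spot against the noise of its own array. The members' counts are therefore given beside the share of all gene probes on, called brightness below. This share did not simply follow the signal. The median signal was 19.3 in AgNO3 EC20 7 d replicate 1, with 49% of gene probes on. It was 15.8 in Ag-NPs PVP-Coated EC50 3 d replicate 1, with 62.3% on. Between 44.8% and 85.4% of all gene probes were on per array. The silver array with 6 members on had the lowest share, 44.8%. Ag NM300K EC20 3 d replicate 3 and Ag-NPs PVP-Coated EC20 7 d replicate 1 stood apart as bright, with 81.4% and 85.4% of gene probes on and 60.7% and 69.1% of candidates on, against a median of 15.4% of candidates over the silver arrays. The members were chosen by these flags, so counts at like brightness are a description and bear on no cause. CT 3 d replicate 3 had 62.1% of gene probes and 22 members on, and Ag-NPs PVP-Coated EC50 3 d replicate 1 had 62.3% of gene probes and 97 members on. For each of the 12 control arrays, the silver array nearest in brightness had more members on, by margins of 4 to 82 members. The smallest margins were those of CT 7 d replicate 3, with 2 on at 46% against 6 at 44.8%, and of CTdisp 7 d replicate 2, with 35 on at 55.8% against 39 in AgNO3 EC20 3 d replicate 3 at 55.7%. A list was also drawn by the same rule with the flag replaced by a rank of signal. The 25611 gene probes of highest processed signal on each array then counted as on. This list shared 37 of the 100 members. The criterion and the share of probes on changed together, so the part of each in this number was not tested. Arrays were scanned on 4 days. On day 1, a median of 84 members was on over 16 silver arrays and of 4 over 5 control arrays, and on day 3 a median of 87 over 27 silver arrays and of 13 over 5 control arrays. Day 2 held 3 silver arrays and no control. Day 4 held 2 silver arrays, with 39 and 97 on, and 2 CTdisp arrays, with 18 and 77.

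**Figure D2:**
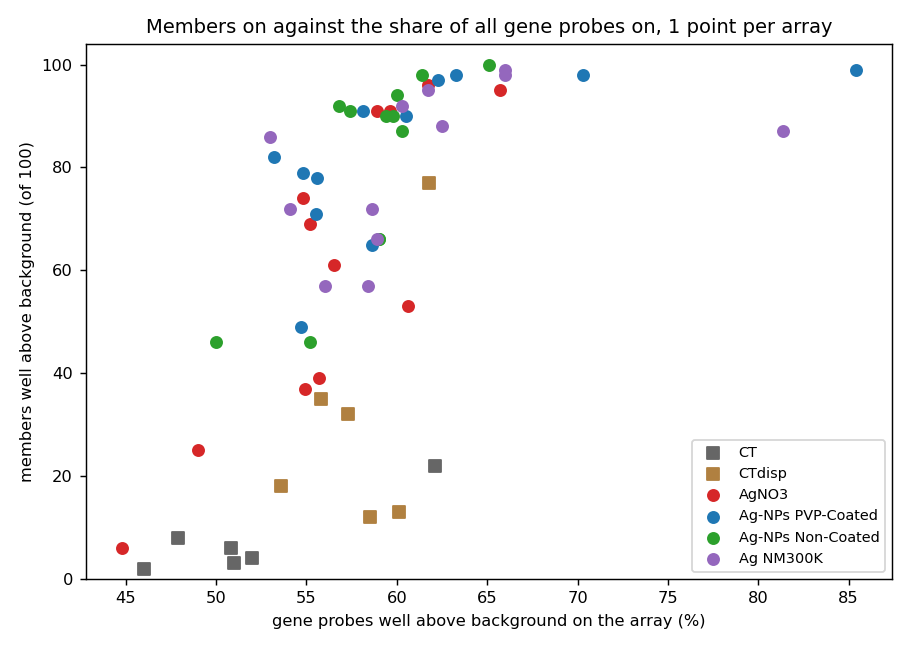
Members on (of 100) against the percentage of all gene probes on, with 1 point per array, squares for controls and circles for silver. CT squares lie at 22 or below, and CTdisp squares reach 32, 35 and 77 at 7 d. Most silver circles lie far higher than the CT squares, and the 2 bright silver arrays stand at the right.

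In signal, the members were higher than in the control in most treatments. The mean of the 3 arrays was above that of the control in all 16 treatments for 49 members, against 4.1% of all gene probes, and in 11 or more treatments for every member. At 3 d the members' median difference from CT was 1.63 on the log2 scale in Ag-NPs Non-Coated EC50, a 3.09-fold difference, 1.6 in Ag-NPs PVP-Coated EC50 and 0.84 in AgNO3 EC50. The median over all gene probes was itself 0.47, 0.39 and 0.34 in these treatments. At 7 d the medians were closer together, from 0.39 in Ag NM300K EC20 against CTdisp to 0.94 in Ag-NPs Non-Coated EC50 against CT. In 80 members all 3 arrays of Ag-NPs PVP-Coated EC50 3 d lay above all 3 of CT, against 36.8% of gene probes in that pair of groups. In Ag NM300K EC20 7 d against CTdisp 7 d the count was 23, against 7.99%. The treatments of 1 time share their control arrays, so these values are not independent of each other.

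**Figure D3:**
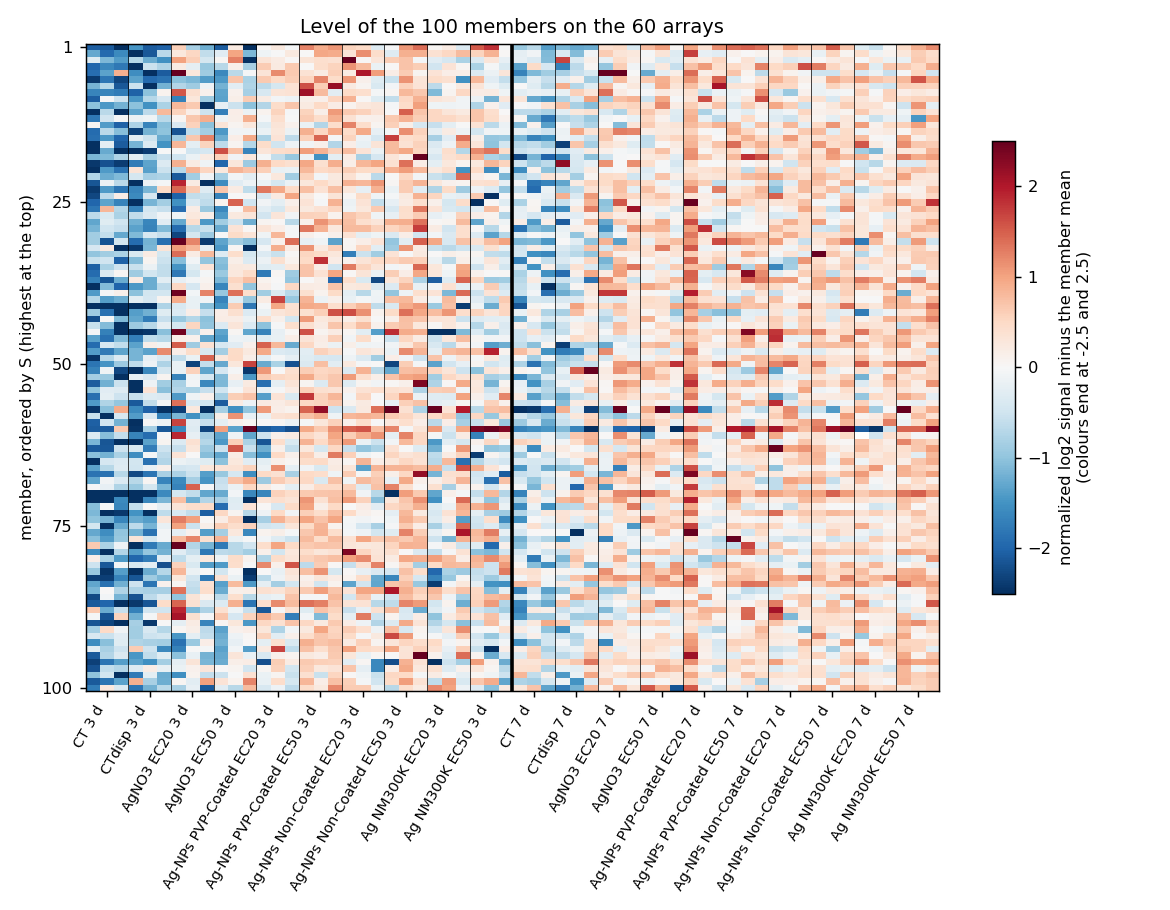
SVCD-normalized log2 signal of each member (rows, ordered by S) on each array (columns, by group, with 3 d left and 7 d right of the thick line), minus the member's mean over the 60 arrays. CT 3 d is the bluest block, CT 7 d is paler, and the column of Ag-NPs PVP-Coated EC20 7 d replicate 1, 1 of the 2 bright arrays, is redder than its neighbours.

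The member with the highest S was CUST_21611_PI427420766_b (contig09788), on in 45 silver arrays and 1 control array. Its normalized log2 signal was 2.21, 2.18 and 1.59 in CT 3 d and 3.36, 3.61 and 2.91 in CT 7 d. In CTdisp it was 2.81, 2.19 and 2.25 at 3 d and 3.16, 2.99 and 3.03 at 7 d. The 3 values of Ag-NPs PVP-Coated EC50 3 d were 5.51, 5.2 and 5.39, and those of Ag-NPs PVP-Coated EC50 7 d were 5.67, 5.75 and 5.64. All 12 arrays of each particle material were therefore above every control array, with the lowest at 3.73 against a highest control value of 3.61. AgNO3 overlapped with the controls, since AgNO3 EC50 3 d gave 2.2, 4.51 and 0.93 and only the second of these arrays was on. Against CT 3 d, where no array was on, the signal in Ag-NPs PVP-Coated EC50 3 d was at least 4.7-fold higher, a bound set against the dimmest spots that were on.

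CUST_2312_PI427420766_b (contig04828) came second, on in 46 silver arrays and 2 control arrays. Its log2 signal was 2.76, 2.09 and 2.45 in CT 3 d and 3.81, 3.96 and 2.94 in CT 7 d, and ran from 2.91 to 5.76 over the 48 silver arrays with a median of 4.32. It was on in all 12 arrays of each of the 3 particle materials and in 10 of the 12 AgNO3 arrays. Unlike the first member, its levels at 7 d in silver and in CT were close, and 3.96 in CT 7 d replicate 2 was above several silver arrays. The signal was at least 2.91-fold higher in Ag-NPs PVP-Coated EC50 3 d than in CT 3 d and at least 1.14-fold higher in Ag-NPs PVP-Coated EC50 7 d than in CT 7 d.

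The remaining comparisons were not the rule's own contrast, but they used the same arrays and are not independent of it. Of the 48 silver arrays 12 were AgNO3 and the rest particles, so a high S could be reached by a probe that was on in particles and off in AgNO3. The change of the silver effect and the effect of Ag NM300K were built from the silver and control values that the rule compared. Counts of members below are therefore descriptions of the list. The comparisons were tested with limma on all 43750 gene probes, and a probe was called a differentially expressed gene (DEG) when its adjusted p was below a false discovery rate of 5%. The 3 arrays of a group are biological replicates per the series description, and the p-values measure the spread between them.

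Silver nitrate was compared directly with the pair of Ag-NPs, which have the same control. Some members were lower in AgNO3. Of the 100 members, 9 were called over-expressed in the Ag-NPs and 0 under-expressed, against 1.73% and 0.231% of all gene probes, and 90 had a positive difference. Their median difference was 0.33 on the log2 scale (median SE 0.22), against 0.02 over all gene probes and -0.04 over the candidates. The rule, with 12 AgNO3 arrays among 48, favoured this direction. The count was sensitive to scaling, with 2 members called under Median and 75th percentile normalization and 3 under Quantile normalization. Over all gene probes the number called higher also fell, from 758 to 119, 116 and 138 in the same order. The number called lower was 101 with SVCD and 134, 134 and 125 in these settings. The members' median difference stayed positive, at 0.24 to 0.27. Leaving out AgNO3 EC20 7 d replicate 1 left 3 called. Leaving out AgNO3 EC50 3 d replicate 1, which had the lowest share of gene probes on, left 4. Ranked by mean level over the 4 materials, AgNO3 was lowest for 68 members and highest for 5, while Ag-NPs Non-Coated was highest for 45 and Ag-NPs PVP-Coated for 38. On scan days 1 and 3, medians of 58 and 71.5 members were on in AgNO3 and of 84 and 90 in the Ag-NPs.

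The member with the smallest p in this comparison was CUST_4716_PI427420766_b (contig24676), whose level was close to a switch between treatments. It was higher in the Ag-NPs by 1.75 ± 0.32 (SE) on the log2 scale (limma adjusted p = 0.00266). In control arrays it ran from 0.99 to 2.8, except for 4.29 in CT 3 d replicate 3. Ag-NPs PVP-Coated EC20 3 d was at control level, with 1.54, 1.63 and 1.44, and Ag-NPs PVP-Coated EC50 3 d was at 4.58, 4.3 and 4.78. Both doses were high at 7 d, with 5.27, 4.7 and 3.79 at EC20 and 5.65, 5.69 and 4.88 at EC50. All 12 Ag-NPs Non-Coated arrays lay between 3.61 and 6.13. In AgNO3 the arrays were scattered, from 0.86 to 6.56, and 3 of 12 were on. The other member named for this comparison, CUST_21611_PI427420766_b, was higher in the Ag-NPs by 1.13 ± 0.22 (limma adjusted p = 0.00444).

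The Ag-NPs with and without a PVP coating were not told apart by the members. With limma 0 members were called in either direction, as were 0 of all gene probes (0%), and 2 members were higher and 1 lower at an unadjusted p under 0.05. The median difference of PVP-Coated minus Non-Coated was -0.02, with differences from -0.9 to 0.55. For 94 members the 95% interval of the difference lay within a 2-fold change either way, and smaller differences between the particles were not excluded. With both bright arrays left out 0 members were called and the median was -0.08.

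Few members were called between doses, at a share near that of all gene probes. Between EC50 and EC20, averaged over materials and times, 1 member was called over-expressed at EC50 and 0 under-expressed, against 1.77% and 0.0389% of gene probes. The median difference was 0.11 against 0.04 over all gene probes, and for 97 members the 95% interval lay within a 2-fold change. The called member was again CUST_4716_PI427420766_b, higher at EC50 by 1.42 ± 0.26 (limma adjusted p = 0.0235), with adjusted p between 0.00199 and 0.299 over the alternatives. It was not called under Median or 75th percentile normalization. With normexp background correction, which shifted all gene probes by a median of -0.2, 87 members were called and all of them lower at EC50. The part of that shift in these calls was not tested, so they are not read as specific to the members. No direction of a dose effect is given for the list. Within Ag NM300K this probe was 5.96 to 7.09 at EC50 3 d and 5.1 to 5.92 at EC50 7 d, while EC20 gave 4.71, 3.28 and 4.61 at 3 d and 1.56, 1.21 and 3.13 at 7 d. That difference of 2.78 ± 0.52 (limma adjusted p = 0.0436), against 0.00457% of gene probes called higher and 0.00229% lower, was lost in 40 of 72 alternatives. These were slide as a fixed or random block, scan day as a block, the replicate block, Median and 75th percentile normalization, normexp, no intensity trend, a model of these groups only, both bright arrays left out, and any of 30 single arrays left out. Between doses of AgNO3, 0 members were called, against 0.016% of gene probes higher and 0.0434% lower, and between doses of each of the Ag-NPs 0 members and 0% of gene probes. At an unadjusted p under 0.05, AgNO3 had 8 higher and 6 lower, PVP-Coated 7 and 0, and Non-Coated 3 and 0.

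**Figure D4:**
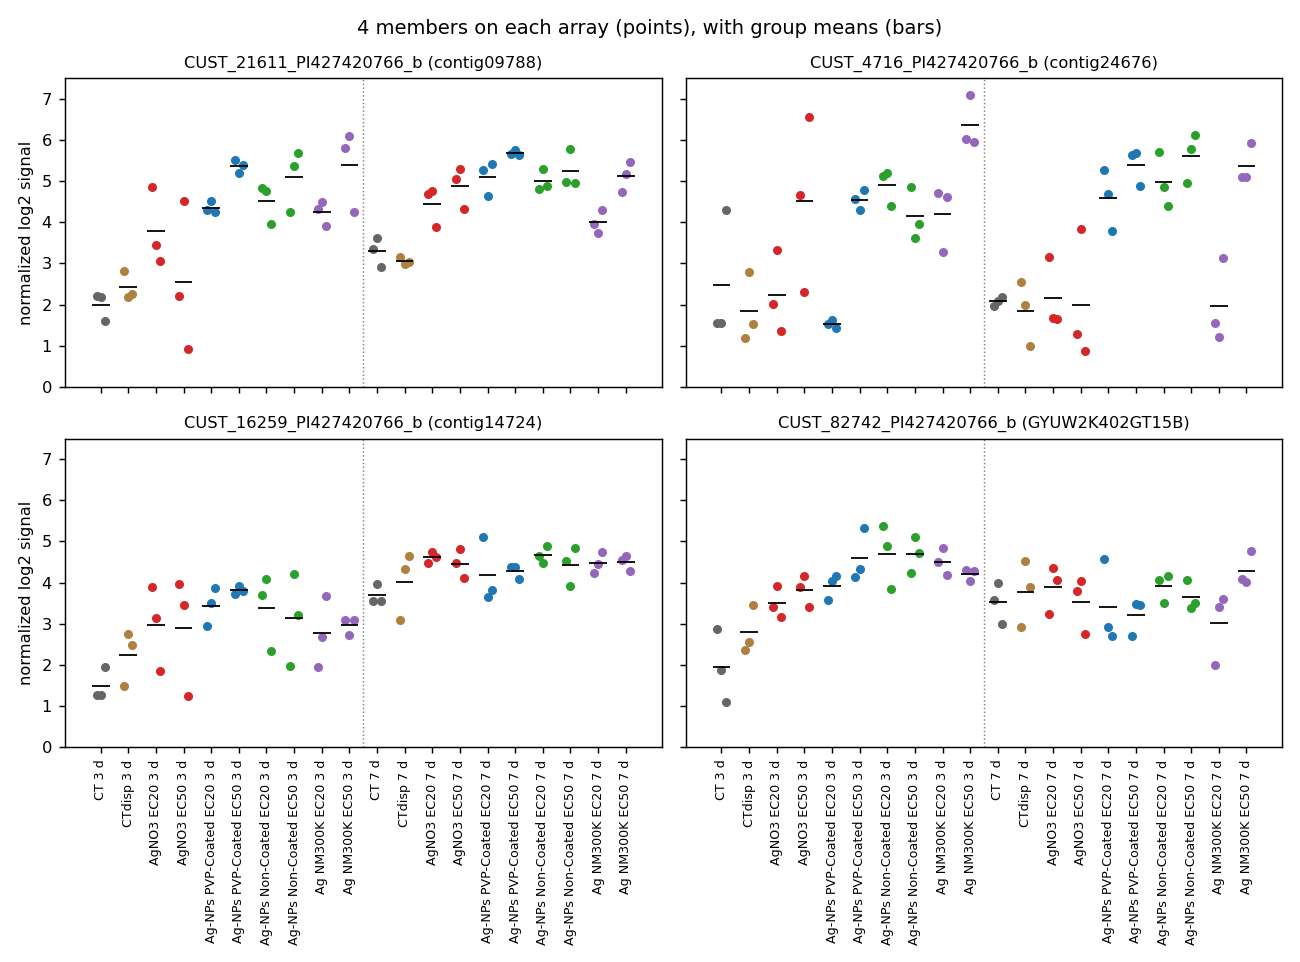
SVCD-normalized log2 signal of 4 members on each array (points), with group means (bars), 3 d left and 7 d right of the dotted line. CUST_21611_PI427420766_b is above all controls in every particle array, CUST_4716_PI427420766_b moves between a low and a high level by treatment, CUST_16259_PI427420766_b is higher at 7 d with and without silver, and CUST_82742_PI427420766_b has its lowest group means in the 3 d controls.

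After SVCD normalization more members were called for time than for dose or material. Under normexp the order of time and dose turned, with 73 called for time and 87 for dose. The median over all gene probes also moved lower under normexp in both comparisons, so this turn is not read as specific to the members. In silver, 31 members were called higher at 7 d than at 3 d and 4 lower, against 12.4% and 8.81% of gene probes. The median difference was 0.26, against -0.02 over all gene probes and -0.1 over the candidates. The count of members on per array was 66.4 ± 21.6 at 3 d and 86.5 ± 17.9 at 7 d (SD, n = 24), and 89 members were on in more arrays at 7 d. With Median, 75th percentile and Quantile normalization 22 to 28 were called higher and 4 lower. With normexp the direction turned, with 73 members called lower and 0 higher, and the median over all gene probes moved to -0.23. By material, 9 members were called higher at 7 d in AgNO3, 4 in Ag-NPs PVP-Coated, 3 in Ag-NPs Non-Coated and 15 in Ag NM300K, against 4.54%, 1.94%, 1.72% and 10% of gene probes. The members called lower numbered 0, 0, 2 and 1 in the same order, against 1.02%, 5.42%, 3.88% and 0.882%. These counts rested on single arrays. With 1 array left out, the members called in both directions together numbered 3 to 19 in AgNO3, 2 to 5 in Ag-NPs PVP-Coated, 1 to 6 in Ag-NPs Non-Coated and 7 to 18 in Ag NM300K. The AgNO3 count was 19 without EC50 3 d replicate 2, 3 without EC50 3 d replicate 3 and 5 without EC20 7 d replicate 2. The PVP-Coated count was 2 without replicate 3 of EC20 3 d, EC50 3 d or EC20 7 d. The Non-Coated count was 1 to 3 without any array of that material other than replicates 2 and 3 of EC50 3 d. The Ag NM300K count was 7 to 10 without replicate 1 of EC20 3 d, EC20 7 d or EC50 7 d, or replicate 2 or 3 of EC50 3 d, and 5 under Median normalization.

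Among those called higher, CUST_16259_PI427420766_b (contig14724) differed by 1.29 ± 0.19 (limma adjusted p = 8.63e-07) and CUST_47343_PI427420766_b (GYUW2K402IUZWP) by 1.36 ± 0.2 (limma adjusted p = 9.42e-07). They differed from each other in the controls. The first rose in CT from 1.27, 1.27 and 1.95 at 3 d to 3.55, 3.96 and 3.56 at 7 d, a difference of 2.2 ± 0.54 (limma adjusted p = 0.00509). CUST_47343_PI427420766_b was at 1.59, 1.94 and 2.5 in CT 3 d and 2.64, 1.57 and 2.34 in CT 7 d, a difference of 0.17 ± 0.57 (limma adjusted p = 0.895). In AgNO3 EC20 the same probe was at 3.23, 1.11 and 2.81 at 3 d and 3.44, 4.48 and 4.6 at 7 d. Under normexp neither probe was called. The members called lower included CUST_85525_PI427420766_b (GYUW2K402H0TLN), with a difference of -0.59 ± 0.16 (limma adjusted p = 0.00375), and CUST_58311_PI427420766_b (GYUW2K401C8XMH), with -0.58 ± 0.16 (limma adjusted p = 0.00467). The first of these was not called with slide as a fixed block.

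Some members also rose with time in worms kept without silver. In CT 17 members were called higher at 7 d and 0 lower, against 8.26% and 0.379% of gene probes, and in CTdisp 15 and 0, against 3.52% and 1.52%. The median difference was 0.69 in CT and 0.81 in CTdisp, where the medians over all gene probes were 0.32 and -0.01. Over the candidates the medians were 0.5 and -0.04. A positive difference was seen in 78 members and 73.6% of candidates in CT, and in 87 members and 40.6% of candidates in CTdisp. In CT the members were thus near the pool they were drawn from. Under Median normalization 5 and 9 members were called in CT and CTdisp, with normexp 0 and 0, 3 and 0 when the fit held only the groups compared, and 6 and 9 with slide as a fixed block. Gene probes called higher in CT numbered 3613 with SVCD, 1011 under Median normalization, 176 with normexp and 1912 with slide as a fixed block. Those called lower numbered 166, 359, 39 and 114. In CTdisp the numbers were 1541, 1097, 349 and 1142 higher and 664, 907, 295 and 710 lower. With 1 array left out the counts ran from 7 to 18 in CT and from 5 to 21 in CTdisp. The count in CT was 7 without CT 7 d replicate 2, 9 without CT 3 d replicate 3 and 11 without CT 7 d replicate 1. That in CTdisp was 5 without CTdisp 3 d replicate 1, 6 without CTdisp 3 d replicate 2 and 7 without CTdisp 7 d replicate 3. Of the 17 members called in CT, 8 were also called in CTdisp, which is 47.1% of the first list and 53.3% of the second. Of the 31 members called higher with time in silver, 12 were among those called in CT and 10 among those called in CTdisp. Shared calls were not counted over all gene probes, so this sharing is not read as particular to the members. The flag and the normalized level ran in opposite directions in CT, since 4, 6 and 22 members were on at 3 d and 3, 8 and 2 at 7 d, while the level was higher at 7 d. CT 7 d also had the lowest share of candidates on among the control groups, a mean of 4.46% against 12.7% in CT 3 d. The median signal per array was 16.8, 11.5 and 16.1 in CT 7 d and 16.3, 13 and 15.9 in CT 3 d. The lowest signal that was on was 13.4, 11 and 17 in CT 7 d and 11.9, 9.81 and 6.49 in CT 3 d. The part of array brightness in these opposite directions was not tested.

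The difference between silver and control was smaller at 7 d for a few members. The change of the silver effect from 3 to 7 d was called negative for 9 members and positive for 1, against 4.37% and 0.155% of gene probes. The members' median change was -0.4, that of the candidates -0.41 and that of all gene probes -0.24, so the members did not stand apart from the pool they were drawn from. With Median normalization the median over all gene probes was -0.07, that of the candidates -0.24 and that of the members -0.23, and 4 members were called negative and 1 positive. With normexp 0 were called. CUST_82742_PI427420766_b (GYUW2K402GT15B) changed most, by -2.06 ± 0.42 (limma adjusted p = 0.00194). Its level was 2.86, 1.88 and 1.09 in CT 3 d and 3.57, 4 and 3 in CT 7 d, while Ag-NPs PVP-Coated EC50 was at 4.14, 4.33 and 5.33 at 3 d and 2.71, 3.49 and 3.46 at 7 d. At 7 d the silver arrays therefore overlapped with CT. CUST_18509_PI427420766_b (contig12633) changed by -1.87 ± 0.4 (limma adjusted p = 0.0034), from 1.88, 2.12 and 1.93 in CT 3 d to 3.79, 3.41 and 3.65 in CT 7 d. The only member called positive was CUST_73504_PI427420766_b (GYUW2K401BI826), with 1.39 ± 0.39 (limma adjusted p = 0.0294), which was 3.17, 3.2 and 3.54 in CT 3 d, 2.06, 3.14 and 2.3 in CT 7 d, and 5.11, 6.13 and 5.9 in Ag-NPs PVP-Coated EC50 7 d. Its call was lost with slide as a fixed block, under Quantile normalization and normexp, and without CT 3 d replicate 2 or 3 or CT 7 d replicate 1 or 3.

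**Figure D5:**
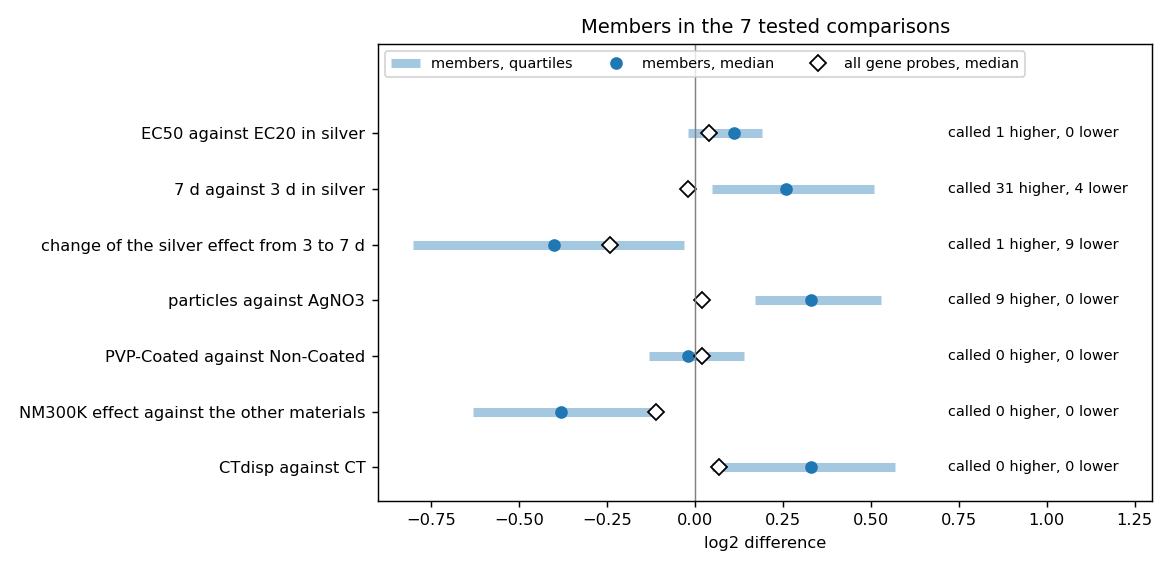
Median (blue points) and quartiles (blue bars) of the members' log2 differences in the 7 tested comparisons, with the median over all gene probes (diamonds) and the number of members called in each direction. The members' median is 0.26 for time in silver, -0.4 for the change of the silver effect and 0.33 for the Ag-NPs against AgNO3, each further from 0 than that of all gene probes, though the candidates' median for the change of the silver effect was -0.41.

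The dispersant control was not called different from un-spiked soil in any member. CTdisp against CT gave 0 members in either direction, against 0.0457% of gene probes called higher and 0% lower, and 13 members were higher and 0 lower at an unadjusted p under 0.05. Their median difference was 0.33 against 0.07 over all gene probes, with a median SE of 0.36. In flags, 81 members were on in more CTdisp than CT arrays and 5 in fewer, and 60 were on in no CT array. Candidates as a whole were also on more often in CTdisp, with a mean of 15% per array against 8.59% in CT. The effect of Ag NM300K, taken against CTdisp, was compared with the mean effect of the other materials, taken against CT. Here 0 members were called, against 0.16% of gene probes called lower and 0% higher, and 13 were lower and 0 higher at an unadjusted p under 0.05. The members' median was -0.38 against -0.11 over all gene probes. With Median normalization these medians were -0.19 and 0.07. For 82 members the 95% interval reached beyond a 2-fold change, so a difference of that size was not excluded for them.

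Within groups the members did not move as 1 unit. The SD of a member's log2 signal between the 3 arrays of a group, pooled over groups, was 0.399 to 1.46 with a median of 0.633, against 0.811 over candidates and 0.355 over the probes detected on all arrays. The largest spread was that of CUST_48298_PI427420766_b (GYUW2K402HHKW8), singled out after its values were seen. It ran from 1.08 to 9.64 over the 60 arrays, with 9.64, 4.65 and 5.05 in the 3 arrays of Ag NM300K EC50 7 d and 3.06, 7.46 and 4.12 in AgNO3 EC20 7 d. Over the 60 arrays, after group means were removed, the correlation between pairs of members had a median of 0.118, and 70.4% of 4851 pairs were above 0. The mean was 0.117 for the members and 0.161 for candidates, and 0.00135 for the probes used for normalization. The part of array brightness in these correlations was not tested.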

How the data were processed

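Total RNA of 60 samples was labelled with Cy3 and hybridized on 1-colour Agilent arrays, 16 slides scanned on 4 days. The authors deposited, for each array, the spot intensity values of Agilent Feature Extraction 10.7.3.1 (processed signal after background subtraction, in which spots at background carry a surrogate value, and detection flags); no sequencing depth applies, and the number of arrays limits the precision. From these, log2 processed signals were normalized with SVCD, a condition-decomposition method of the study, written anew in R 4.3.3. Offsets came from 22880 probes positive and significant on all arrays without outlier spots, of which 6587 formed the no-variation set, and were applied to all 43750 gene probes. Outlier spots were set missing. Differences were tested with limma 3.58.1 (group means over all arrays, moderated with an intensity trend, two-sided, Benjamini-Hochberg over all gene probes, false discovery rate of 5%, no filter on dim probes). SE and adjusted p are those of this fit.

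Bounds ("at least") set the brighter group's mean against the higher of the dim spot and the dimmest spot that was on, per array. Named are the 2 members of highest S, those at the edge of the list and, per comparison, up to 2 called members in each direction. The members and comparisons were chosen with earlier results of these data known. The methods were tested on simulated data. The authors' series-wide table of processed values was not used. Alternatives were Median, 75th percentile and Quantile normalization, normexp (offset 50, on median signals), a filter on dim probes, no trend, slide, scan day or replicate number as a block, and arrays left out.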

Additional observations from a re-analysis of the deposited data

Results flagged for a closer look

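The silver effect differed between 3 and 7 d for 10 members, 9 negative and 1 positive, in limma at a false discovery rate of 5%. Of all gene probes 4.37% were called negative and 0.155% positive. The members' median change was -0.4 and that of the candidates -0.41. This comparison was built from the silver and control values that the rule used, so the count describes the list. Without CT 3 d replicate 2, CT 3 d replicate 3 or CT 7 d replicate 2 the count was 5. No group had more than 3 arrays, so single arrays were not tested as outliers.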

How the results depend on the processing

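Counts are members called in limma unless stated. Under Median normalization 0 were called between doses, 5 for the change of the silver effect and 2 for the Ag-NPs against AgNO3, and under the 75th percentile 0, 5 and 2. Under Quantile normalization 3 and 3 were called in the last 2 of these. In the same order of settings, gene probes called higher for the Ag-NPs numbered 119, 116 and 138, against 758 with SVCD. Those called lower for the change of the silver effect numbered 503, 583 and 544, against 1914. Under normexp 87 were called between doses and 73 for time in silver, all lower, and 0 for the change of the silver effect. For dose and for time in silver the median over all gene probes also moved lower. By material normexp turned time, with 2 called lower in AgNO3, 97 in Ag-NPs PVP-Coated and 1 in Ag NM300K. The gene probes called lower numbered 877, 31925 and 610 in the same order. Under normexp CUST_47343_PI427420766_b was at -0.01 for time in silver. CUST_85525_PI427420766_b was at 0.02 for time in Ag-NPs Non-Coated. A model of those groups only left 1 member called, lower, for time in Ag-NPs Non-Coated. The filter on dim probes gave 2 between doses and 14 for the Ag-NPs, and no trend gave 0 between doses. Slide as a fixed block gave 3 for the Ag-NPs. The cause of these changes was not tested.

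A list drawn with the positive and significant flag shared 3 members. One that took an equal number of probes of highest signal per array as on shared 37. One with each treatment set against its own control shared 69, and 1 without both bright arrays, chosen after seeing the data, shared 93.

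With 1 array left out, 1 to 3 members were called between doses (above 1 without AgNO3 EC20 3 d replicate 3, AgNO3 EC50 3 d replicate 3 or AgNO3 EC20 7 d replicate 3), 29 to 38 for time, 5 to 12 for the change of the silver effect and 3 to 13 for the Ag-NPs against AgNO3. That last count was at most 5 without AgNO3 EC20 replicate 1 at 3 or 7 d, AgNO3 EC50 3 d replicate 1 or 3, or AgNO3 EC50 7 d replicate 3. It was 0 to 1 for Ag NM300K (1 without CTdisp 3 d replicate 2) and 0 for the coating and for CTdisp. The list shared 74 to 100 members, and the median silver difference was 0.94 to 1.01, and 0.8 under Median normalization.

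Replicate numbers did not pair the arrays, since same-numbered arrays of different groups had a median correlation of deviations of 0.0107 and a lowest of -0.578. With the replicate block the counts in the 7 comparisons were 1, 35, 10, 9, 0, 0 and 0, as without it. The calls of CUST_4716_PI427420766_b between doses of Ag NM300K, at a difference of 2.78, and of CUST_86166_PI427420766_b for time in Ag-NPs Non-Coated were lost with it. Arrays of 1 group correlated at 0.945 to 0.992, so none was counted as a repeat. Signals near background limit every value here.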
